A study of Mus musculus with 1 sample.

Results

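The genes described here are 9 transcription factors known for the identity and self-renewal of hematopoietic stem cells (HSCs): *Hoxa5*, *Hoxa7*, *Hoxa9*, *Hoxa10*, *Hoxb4*, *Meis1*, *Hlf*, *Mecom* and *Prdm16*. They were chosen by name, and all 9 were found among the 54532 genes of the deposited table. The data were 1 library, that of Ctrl mice of the C57BL/6 strain with the wild-type genotype. RNA came from bone marrow (BM) cells sorted for c-kit, the receptor for stem cell factor on hematopoietic stem and progenitor cells. The labels add a gate negative for lineage markers and for Sca-1, a gate that leaves out the Sca-1-positive fraction in which HSCs are found. The study set these cells beside those of *Gadd45g*-deficient mice with MPN, whose library was not analysed here, so no direction of change is given. The age and number of the mice behind the library, and whether they carried the Cre transgene, are not given in the sources used here.

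HOX proteins bind DNA through a homeodomain and, in blood as in the embryo, work with TALE homeodomain partners of the MEIS and PBX families. In mice, genes of the middle of the *Hoxa* cluster and *Meis1* are active in stem and early progenitor cells and are switched off as cells mature, and their persistent expression drives myeloid leukemia. *Hlf*, *Mecom* and *Prdm16* mark the most immature cells and are needed to maintain them.

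Levels are given in FPKM, the fragments on a gene scaled by its exon length and by the library's total, a scale per length on which genes of the library can be compared. Whole fragments could be recovered from the values of all 9 genes. Each level is therefore given with its fragments and an exact Clopper-Pearson interval of 95%, which covers counting error only. The spread between mice cannot be known from 1 library, and no test between groups was possible. In bulk RNA, fewer cells that express a gene and less RNA in each such cell cannot be told apart.

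Of the 9 factors, 1 reached 1 FPKM, against 46.8% of the 21995 protein-coding genes. Their median was 0.574 FPKM, close to the 0.5997 FPKM of all protein-coding genes, many of which are listed at 0. The median of the protein-coding genes above 0 was 4.22 FPKM. Together the 9 genes held 498 fragments of 17113323, and *Hoxb4* alone held 32.9% of them. None of the 9 was without fragments, and of all protein-coding genes 67.6% were above 0. The number needed for 1 FPKM ran from 29.6 for *Hoxa5* to 196 for *Mecom*. Of the intervals, 6 lay wholly below that level, and the share of all protein-coding genes with such intervals is not given.

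**Figure D1:**
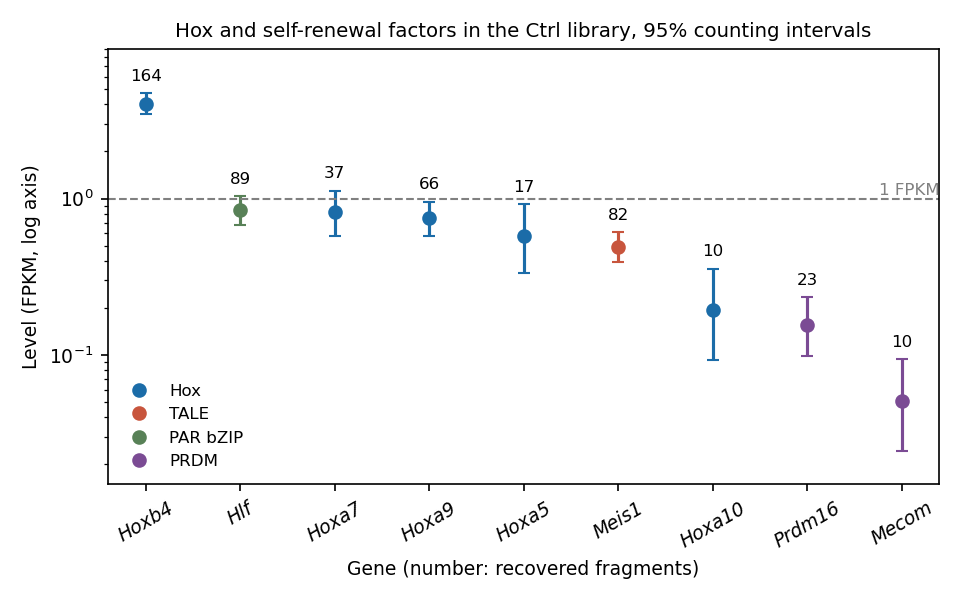
Level in FPKM on a log axis of each of the 9 genes in the Ctrl library, with bars for the 95% counting interval and the number of recovered fragments above each bar. *Hoxb4* lies above the dashed line at 1 FPKM with 164 fragments, the intervals of *Hlf* and *Hoxa7* cross the line, and the other 6 genes lie below it.

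*Hoxb4* (ENSMUSG00000038692), whose forced expression expands HSCs, led the 9 genes with 4.05 FPKM from 164 fragments (interval, 3.45 to 4.72). It maps to chromosome 11, forward strand, between 96318267 and 96321638 (GRCm38), with 1 annotated transcript and 2 exon blocks whose 2566 bases are shared with no other gene. It was above 65.7% of protein-coding genes. *Kit*, the gene of the receptor used for sorting, had 7.17 FPKM, which was 1.77 times *Hoxb4* (interval of the ratio, 1.499 to 2.10).

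*Hlf* (ENSMUSG00000003949), a PAR bZIP factor that keeps HSCs quiescent, came next. It maps to chromosome 11, reverse strand, between 90336536 and 90390895. Its level was 0.844 FPKM from 89 fragments (interval, 0.678 to 1.04), and *Hoxb4* was 4.80 times as high (interval, 3.68 to 6.28). This gap at the top of the order was thus larger than counting error.

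The *Hoxa* genes lie on the reverse strand of chromosome 6. *Hoxa7* (ENSMUSG00000038236), from 52214491 to 52221854, had 0.815 FPKM from 37 fragments (interval, 0.574 to 1.12). *Hoxa9* (ENSMUSG00000038227), from 52223100 to 52231089, is the family member most closely tied to HSC function and, with *Meis1*, to leukemia. It had 0.749 FPKM from 66 fragments (interval, 0.580 to 0.953), less than *Hoxb4* by a ratio of 5.40 (interval, 4.04 to 7.30). *Hoxa5* (ENSMUSG00000038253), from 52201754 to 52204587, had 0.574 FPKM from 17 fragments (interval, 0.334 to 0.919). *Hoxa10* (ENSMUSG00000000938), from 52231197 to 52240854, had 0.194 FPKM from 10 fragments (interval, 0.0929 to 0.356). *Hoxa9*, its neighbour on the chromosome, was 3.87 times as high (interval, 1.98 to 8.44), so the step between these adjacent genes exceeded counting error.

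*Meis1* (ENSMUSG00000020160), the TALE partner of HOXA9, maps to chromosome 11, reverse strand, between 18879817 and 19018985. It had 0.493 FPKM from 82 fragments (interval, 0.392 to 0.612), and *Hoxa9* was 1.52 times as high (interval, 1.08 to 2.13). Both PRDM factors were lower. *Prdm16* (ENSMUSG00000039410), a zinc finger protein that preserves HSCs, maps to chromosome 4, reverse strand, between 154316125 and 154636873, and had 0.156 FPKM from 23 fragments (interval, 0.0991 to 0.235). *Mecom* (ENSMUSG00000027684), which encodes the EVI1 zinc finger protein, maps to chromosome 3, reverse strand, between 29951296 and 30548008. It had the lowest level of the 9, at 0.0510 FPKM from 10 fragments (interval, 0.0244 to 0.0938), below *Prdm16* by a ratio of 3.07 (interval, 1.40 to 7.22).

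The 9 levels thus spanned a ratio of 79.4. Of the steps between neighbours in the order, those from *Hoxb4* to *Hlf*, from *Meis1* to *Hoxa10* and from *Prdm16* to *Mecom* exceeded counting error. The last did not when levels were divided by the longest transcript in place of all exons (ratio, 1.52, interval, 0.697 to 3.58). The step from *Meis1* to *Hoxa10* was a ratio of 2.55 (interval, 1.32 to 5.51). From *Hlf* through *Hoxa7*, *Hoxa9* and *Hoxa5* to *Meis1*, neighbours were not distinguishable at this depth, since each ratio's interval included 1. The same held for *Hoxa10* and *Prdm16*, with a ratio of 1.24 (interval, 0.527 to 2.71).

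**Figure D2:**
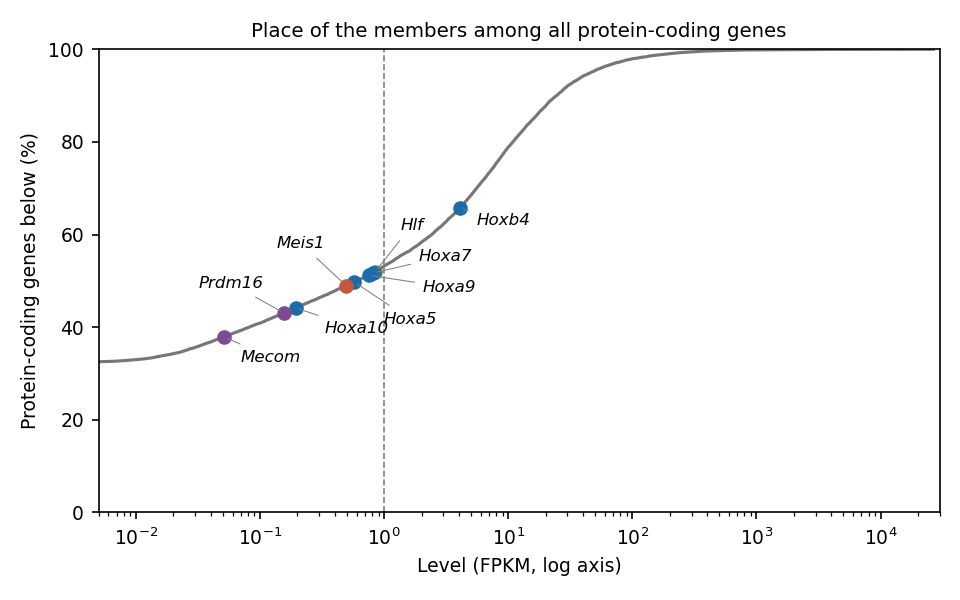
Percentage of the protein-coding genes below a given level (vertical axis) against the level in FPKM on a log axis (grey line), with the 9 genes as points. *Hoxb4* sits above 65.7% of the genes, *Mecom* above 37.9%, and the dashed line marks 1 FPKM.

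Sequence upstream of the start is shown for 3 Hox genes, since MLL and Polycomb complexes are known to act at CpG-rich promoters of this family. These are *Hoxb4* as the most abundant gene, and *Hoxa5* and *Hoxa9* as the members with the most and the fewest CpG. Each is the 250 bases before the RefSeq start (GRCm38.p6), 5′ to 3′ on the gene's strand, with every CpG in capitals. The windows are chr11:96318017-96318266 on the forward strand for *Hoxb4*, and chr6:52204588-52204837 and chr6:52227371-52227620 on the reverse strand for *Hoxa5* and *Hoxa9*.
Hoxb4: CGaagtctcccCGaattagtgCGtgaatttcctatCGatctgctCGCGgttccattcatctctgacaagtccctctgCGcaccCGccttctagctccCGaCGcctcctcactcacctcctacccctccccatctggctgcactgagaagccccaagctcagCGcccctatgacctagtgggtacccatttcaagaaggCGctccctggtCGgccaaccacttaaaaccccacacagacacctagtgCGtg
Hoxa5: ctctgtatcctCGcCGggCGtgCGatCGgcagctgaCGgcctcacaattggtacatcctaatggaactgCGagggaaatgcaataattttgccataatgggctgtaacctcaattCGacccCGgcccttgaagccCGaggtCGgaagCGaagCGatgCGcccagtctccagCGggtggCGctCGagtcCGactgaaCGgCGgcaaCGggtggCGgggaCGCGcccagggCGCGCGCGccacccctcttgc
Hoxa9: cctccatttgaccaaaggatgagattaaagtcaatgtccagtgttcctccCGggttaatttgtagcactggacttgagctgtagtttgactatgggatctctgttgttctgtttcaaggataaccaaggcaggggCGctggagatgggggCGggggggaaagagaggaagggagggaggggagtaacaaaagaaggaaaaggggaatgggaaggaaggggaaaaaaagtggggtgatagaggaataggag

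The *Hoxb4* window holds 14 CpG, the *Hoxa5* window 28 and the *Hoxa9* window 3. Of 32817 such windows over all genes, 29.3% hold at least as many as *Hoxb4*, 7.61% as many as *Hoxa5* and 70.9% as many as *Hoxa9*. The RefSeq start of *Hoxa9* lies inside the longer gene model of GENCODE, so other *Hoxa9* transcripts begin elsewhere. All 9 genes had a window, and *Hoxa10* and *Mecom* had 2 each, for 11 in all. The window of *Hoxa7*, both of *Mecom* and 1 of *Hoxa10* also lie inside the gene models. Annotated exon bases number 78 in the *Hoxa7* window, 16 in that of *Meis1*, and 63 and 250 in those of *Mecom*. The counts that follow thus include some transcribed sequence. Windows with at least 50% GC and an observed to expected CpG ratio of at least 0.6 made up 6 of the 11, against 31.0% of all windows. The CCAAT letters, on either strand, were found in 5 of the 11 windows, against 33.8% of all windows. TATAAA was in 1 (12.4% of all windows), TGACAG in 1 (15.9%) and the palindrome CACGTG in 0 (6.02%). These letter matches are a description of the windows. *Hoxa5*, with the most CpG, was lower than *Hoxb4*, and no relation of the matches to level was tested.

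Most other Hox genes were at or near 0. Of the 38 Hox genes examined, 19 are listed at 0, which allows up to 0.0451 to 0.123 FPKM by gene length, and 8 reached 0.1 FPKM. The 5 Hox members held 294 of the 341 Hox fragments, or 86.2% (interval, 82.1 to 89.7), and 82.6% of the summed Hox FPKM. *Hoxb4* alone gave 52.4% of that sum. By cluster, the *Hoxb* genes gave 57.8% of the summed Hox FPKM and the *Hoxa* genes 39.7%. The *Hoxc* and *Hoxd* clusters, which pattern the embryo and limbs, gave 2.22% and 0.299%, from 5 fragments and 1 fragment.

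Within the *Hoxa* cluster, fragments fell on an unbroken block of neighbours from *Hoxa3* to *Hoxa10*. *Hoxa4* had 0.318 FPKM from 8 fragments and *Hoxa6* 0.362 FPKM from 5. *Hoxa3*, by its number at the edge of the block, had 0.0527 FPKM from 5 fragments, and *Hoxa9* was 14.2 times as high (interval, 5.80 to 45.3). The annotated span of *Hoxa3*, from 52169062 to 52213336, runs across *Hoxa4*, *Hoxa5* and *Hoxa6*. Where in the block its fragments lie is therefore not known. Outside the block, *Hoxa2* on one side and *Hoxa11* and *Hoxa13* on the other are listed at 0. The 4 *Hoxa* members gave 76.1% of the cluster's summed FPKM.

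In the *Hoxb* cluster fragments also fell on a run of neighbours, from *Hoxb1* to *Hoxb6*, and, as in *Hoxa*, on 7 genes in all, but 1 gene held most of them. *Hoxb4* gave 90.7% of the cluster's summed FPKM, and the other 9 *Hoxb* genes had 23 fragments in all. *Hoxb3*, the adjacent gene, had 0.224 FPKM from 15 fragments, and *Hoxb4* was 18.1 times as high (interval, 10.7 to 33.1). On the other side, *Hoxb5*, whose expression marks long-term HSCs, had 0.0455 FPKM from 2 fragments, for a ratio of 89.0 (interval, 24.3 to 741).

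**Figure D3:**
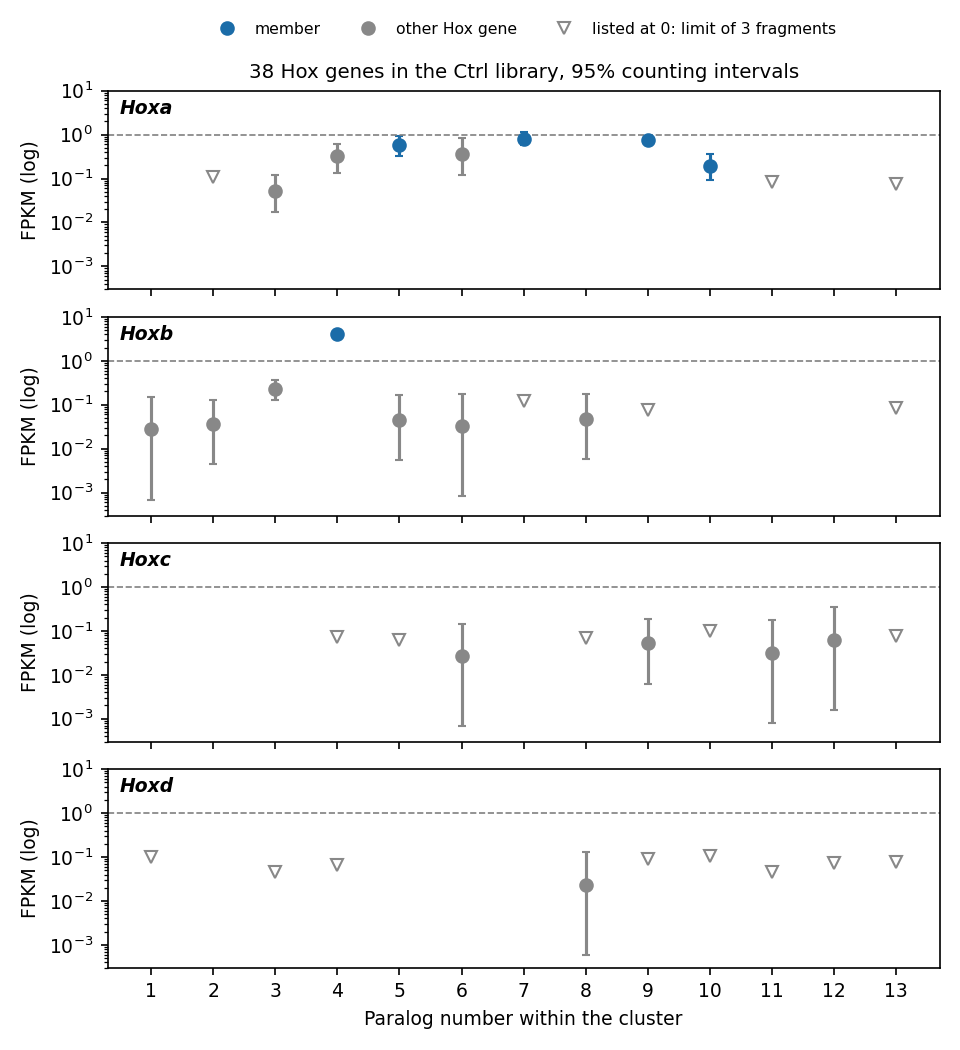
Level in FPKM on a log axis of 38 Hox genes by paralog number, 1 panel per cluster, with bars for the 95% counting interval. Filled points are genes with fragments, blue for the 5 members, and open triangles mark the limit of 3 fragments for the 19 genes listed at 0. *Hoxb4* is the only point above the dashed line at 1 FPKM, and the *Hoxa* points form a block from paralog 3 to 10.

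Each Hox member was also the leading gene of its paralog group, the genes of the same number in different clusters. In group 4, *Hoxb4* gave 92.7% of the summed FPKM, and it was 12.7 times *Hoxa4* (interval, 6.31 to 29.99). In group 5, *Hoxa5* gave 92.7%, with 2 fragments on the other genes. In group 9, *Hoxa9* gave 93.5%, again with 2 fragments on the others. *Hoxa7* and *Hoxa10* held all 37 and all 10 fragments of their groups.

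Several other TALE genes were present at higher levels than *Meis1*. Of 10 TALE genes, 4 reached 1 FPKM, near the share of 46.8% of all protein-coding genes. *Pbx2* was the highest, at 29.9 FPKM, or 60.7 times *Meis1* (interval, 48.6 to 76.7). *Pknox1*, which encodes PREP1, had 10.6 FPKM, and its fragments could not be recovered as a whole number. *Tgif1* had 3.09 and *Pbx3* 1.74 FPKM. *Pbx4* had 0.829, *Tgif2* 0.298 and *Pknox2* 0.178 FPKM. Within the MEIS family, *Meis3* had 0.599 FPKM and could not be told from *Meis1* by counting (ratio, 1.21, interval, 0.771 to 1.87). *Meis2* had 0.0263 FPKM from 5 fragments, the lowest of the 10.

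*Hlf* was the lowest of its bZIP relatives. *Nfil3*, a repressor that binds the same kind of site as the PAR factors, had 20.8 FPKM, 24.6 times *Hlf* (interval, 19.7 to 31.1). *Tef* had 2.95 FPKM, or 3.49 times *Hlf* (interval, 2.76 to 4.45). *Dbp*, a circadian output gene, had 1.10 FPKM, and its ratio to *Hlf* of 1.30 was within counting error (interval, 0.908 to 1.86).

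Among the 15 genes of the PRDM family, 6 reached 1 FPKM, against 46.8% of protein-coding genes, and 4 are listed at 0, with *Prdm12* among these. *Prdm2* was the highest, at 16.3 FPKM, 104 times *Prdm16* (interval, 69.4 to 165). *Prdm4* followed at 7.27 FPKM and *Prdm15* at 2.16 FPKM. The family median of 0.156 FPKM was the level of *Prdm16* itself, and *Mecom* lay below it.

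Chromatin genes known to keep the *Hoxa* genes and *Meis1* active were read too, and whether they bore on the levels of the 9 factors was not tested. All 12 genes of the MLL complex and its elongation partners reached 1 FPKM, against 46.8% of protein-coding genes, with a median of 14.4 FPKM. *Kmt2a*, the MLL1 methyltransferase, had 9.11 FPKM, *Men1* (menin) 14.8 FPKM and *Dot1l* 15.2 FPKM, and the list ran from *Mllt3* at 3.18 to *Aff1* at 27.3 FPKM. The 8 Polycomb genes, which act against them, all reached 1 FPKM too, with a median of 11.9 FPKM, from *Bmi1* at 6.78 to *Suz12* at 30.1 FPKM. *Cdx1*, *Cdx2* and *Cdx4*, which turn on Hox genes in the embryo, are all listed at 0, which allows up to 0.0841 to 0.109 FPKM.

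Known targets of HOXA9 and MEIS1 were higher than *Hoxa9* and *Meis1*. All 8 reached 1 FPKM, against 46.8% of protein-coding genes, with a median of 7.30 FPKM. *Bcl2*, a survival gene, was the lowest at 3.12 FPKM, *Flt3* had 4.90, *Sox4* 7.91 and *Myb* 16.5 FPKM, and *Pim1*, a kinase gene also induced by cytokines, was the highest at 119 FPKM. The 7 stem and progenitor factors that bind DNA together as a heptad all reached 1 FPKM as well, with a median of 18.7 FPKM. Their lowest, *Runx1* at 5.91 FPKM, was above *Hoxb4*, the highest of the 9. *Gata2* had 6.82, *Erg* 11.2 and *Lmo2* 152 FPKM. These genes have other regulators and are expressed in several lineages, so nothing about how active the 9 factors were can be read from them.

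**Figure D4:**
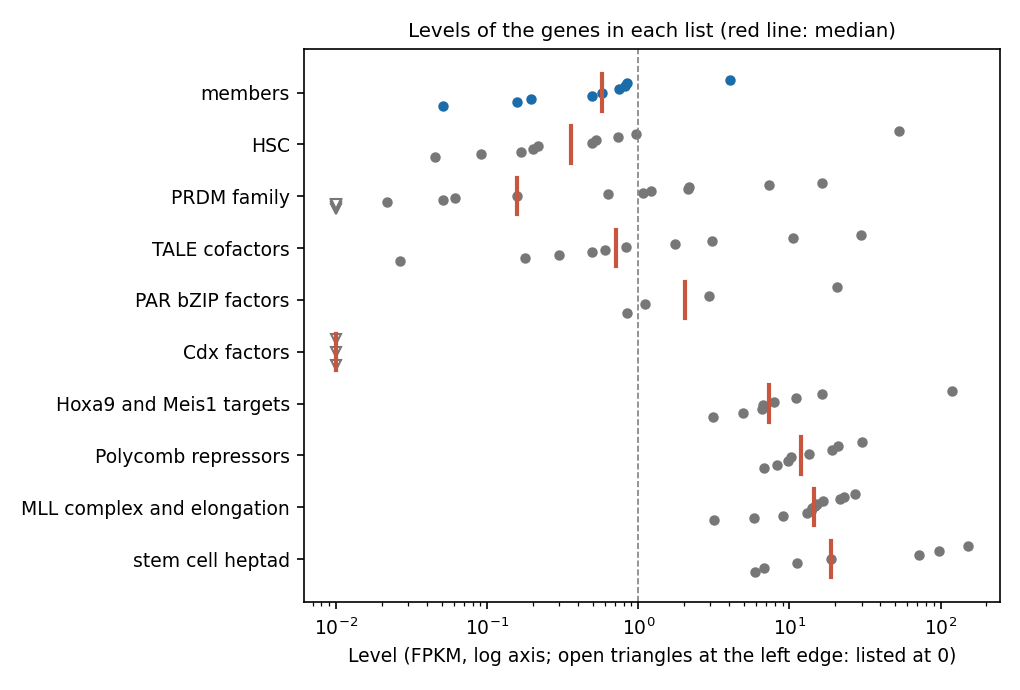
Level in FPKM on a log axis of every gene in each list (points), with the list's median as a red line and genes listed at 0 as open triangles at the left edge. The 9 members and the HSC genes lie mostly left of the dashed line at 1 FPKM, while the target, Polycomb, MLL and heptad genes all lie right of it.

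The labelled cell type was checked against marker genes of the same library, where 46.8% of all protein-coding genes reached 1 FPKM. Of 10 HSC genes, 9 were below 1 FPKM, among them *Procr* at 0.218 and *Slamf1* at 0.525 FPKM. The exception was *Pdzk1ip1* at 53.0 FPKM, and the list's median was 0.357 FPKM. *Ly6a*, which encodes Sca-1, stood at 28.5 FPKM although the label gives a gate negative for it. All 6 genes of multipotent and lymphoid-primed progenitors, all 6 granulocyte-macrophage progenitor (GMP) genes and all 6 megakaryocyte-erythroid progenitor (MEP) genes reached 1 FPKM, with medians of 5.06, 310.0 and 67.7 FPKM. So did all 8 genes of mature neutrophils and all 6 of erythroid cells, which held 12.7% and 9.92% of the summed FPKM. The label's gate is also negative for lineage markers. The highest protein-coding gene was nevertheless the neutrophil gene *S100a9*, at 26677 FPKM, followed by the erythroid gene *Hba-a1* at 25466 FPKM. *Kit*, the gate's positive marker, had 7.17 FPKM, above 73.6% of protein-coding genes. Medians were 85.3 FPKM for 6 B cell genes, 45.6 for 5 macrophage genes, 17.7 for 5 mast cell and basophil genes, 13.0 for 6 megakaryocyte genes (*Gp1bb* at 0), 5.02 for 5 T cell genes and 1.31 for 6 stromal and endothelial genes. The part of these cells in the levels of the 9 factors was not tested.

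How a gene's length is counted bore on the order. The deposited values divide by all annotated exon bases, which run from 1877 for *Hoxa5* to 12427 for *Mecom*, and genes with many transcripts have exons that a given mRNA lacks. With the longest single transcript in its place, *Hoxa9* had 1.30 FPKM and *Hoxa7* 1.15 FPKM, so that 3 of the 9 reached 1 FPKM, while *Hlf* came to 0.999 FPKM. The share of all protein-coding genes under this length is not given. *Mecom* rose to 0.111 FPKM, since its longest transcript has 5692 bases, and was still the lowest. Under this length *Hoxa9* exceeded *Hoxa5* by more than counting error (ratio, 2.26, interval, 1.31 to 4.11), and so did *Dbp* against *Hlf* (ratio, 1.79, interval, 1.25 to 2.55). The ratio of *Hoxb4* to *Hoxa9* fell to 3.12 (interval, 2.33 to 4.22), while that of *Kit* to *Hoxb4* rose to 3.01 (interval, 2.55 to 3.57) and that of *Tef* to *Hlf* to 5.27 (interval, 4.17 to 6.72). Exons of *Hoxa7* share 586 bases, or 20.4% of their length, with the antisense gene *Hoxaas3*, which had 2 fragments. Exons of *Meis1* share 1029 bases with *Gm37818*, listed at 0, and 896 with the antisense gene *Gm16140*, which had 1 fragment. *Hoxa9* shares 85 bases with *Mir196b*, *Mecom* 81 with *Mecomos* and *Prdm16* 109 with *B230104I21Rik*, all 3 listed at 0. Whether the counting used strand is not given in the sources used here, so fragments of a gene and its antisense partner cannot be told apart. Divided by the exon bases that no other gene covers, *Hoxa7* had 1.02 FPKM and *Meis1* 0.604 FPKM. Both values keep all counted fragments of the gene. Whether fragments on shared bases were counted for it is not given in the sources used here. The values are upper limits for the unshared bases only if such fragments were counted.

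**Figure D5:**
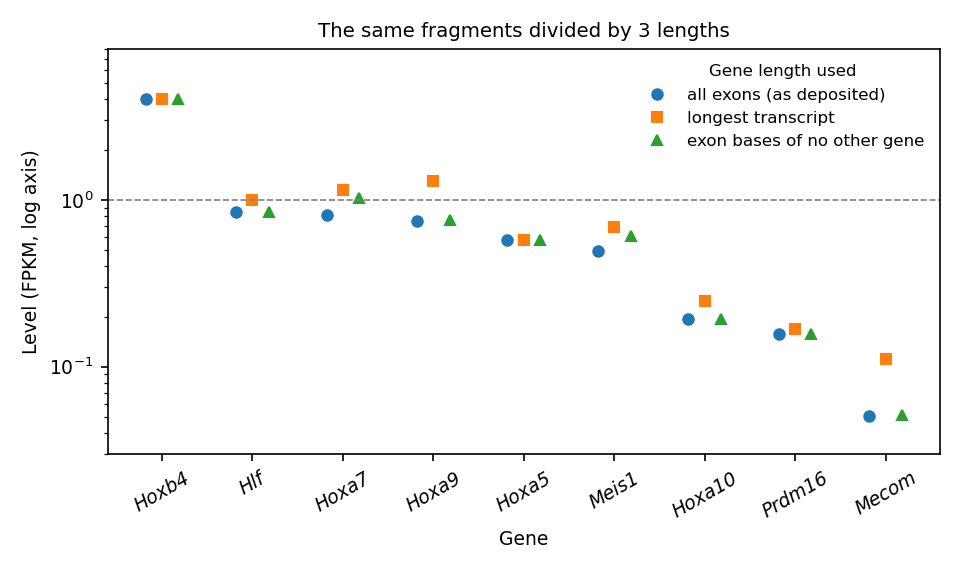
Level in FPKM on a log axis of the 9 genes with the same fragments divided by the length of all exons, of the longest transcript, or of the exon bases of no other gene. *Hoxb4* is the highest and *Mecom* the lowest under each length, and *Hoxa9* and *Hoxa7* cross the dashed line at 1 FPKM with the longest transcript.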

How the data were processed

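The authors sorted c-kit+ BM cells of Ctrl mice and sequenced their RNA on the Illumina platform, and 1 library was analysed, without replicates. The authors deposited 1 FPKM value per Ensembl gene. The submitters' processing notes name HISAT2 2.0.5, featureCounts 1.5.0-p3 and the mm10 build. The annotation and strandedness are not given in the sources used here.

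Gene names and exons were taken from GENCODE M21 (GRCm38), which holds 54495 of the 54532 genes. FPKM times exon length gave whole multiples of 1 step, within 0.01, for 96.4% of the genes above 0 (64.6% on chromosomes 17, 18 and 19), and these were read as fragments. They sum to 15899824, and to 17113323 with the rounded multiples of the other genes, while the step corresponds to a total of 15783891. Recovery and intervals were tested on simulated fragments, drawn at random, which is the error the intervals assume. Recovery was scored only on genes with correct lengths. The test thus does not cover the genes without whole multiples or the differing totals. Intervals of a ratio are exact binomial intervals on the fragments of both genes. A gene listed at 0 is given the FPKM of 3 fragments as its limit.

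The members and lists were chosen with earlier results of these data known. The genes named are the members, the genes that share exons with them, Hox genes, and genes of lists of partners, regulators, targets, relatives and cell type markers. Besides each list's highest and lowest gene, those named singly, and the noncoding and flanking genes, were chosen after the values were seen. From the lists, 2 genes were left out and have no values given. The pairs compared and the promoter motifs were chosen after the values were seen. Analyses ran in Python 3.11.15 with scipy 1.17.1, pandas 2.3.3, numpy 2.4.6 and, for plots, matplotlib 3.10.9.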

Additional observations from a re-analysis of the deposited data

How the results depend on the processing

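No paired analysis was possible because a single library without replicates was analysed. The number of the 9 genes called detected, 1 at 1 FPKM, depended on the minimum. It was 8 at 0.1 FPKM, 5 at 0.5 FPKM, 0 at 10 FPKM and 9 at 10 recovered fragments, changes that follow from the minimum itself. It was 6 at 1 TPM, where every value is multiplied by 2.33 and the median becomes 1.34 TPM, and 3 with the longest transcript as length. Once the 10 genes of highest FPKM were excluded from the total, each level was multiplied by 1.09, and the number was again 1. The share of all protein-coding genes is given only at 1 FPKM on all exons (46.8%), so the other counts have no share beside them. The median ran from 0.534 to 0.662 FPKM when each gene was left out in turn. It was 0.688 FPKM with the longest transcript, where *Meis1* in place of *Hoxa5* was the gene at the median. The order changed at 5 of 9 places when fragments were not divided by length, at 4 with the longest transcript and at 4 with the exon bases of no other gene. *Hoxb4* was the highest in these 3 settings, and *Mecom* was the lowest under both lengths and level with *Hoxa10* in fragments. The share of the summed Hox FPKM on the 5 Hox members was 82.6%, against 86.2% of fragments and 82.9% with the longest transcript. Depth limits *Hoxa10* and *Mecom* most, with 10 fragments each.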

Other observations

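Noncoding genes in and beside the Hox clusters were read in the same library. *Hotairm1*, an antisense gene beside *Hoxa2*, had 0.494 FPKM from 8 fragments (95% exact interval, 0.213 to 0.974), although *Hoxa2* is listed at 0. *Hottip*, at the *Hoxa13* end, and *Hoxaas2*, *Hoxa11os*, *Hoxb3os* and *Hoxb5os* are listed at 0. *Mir10a*, a gene of 110 bases between *Hoxb5* and *Hoxb4*, had 2 fragments, and *Mir196b*, within a *Hoxa9* exon, had 0. Libraries of this kind do not measure mature miRNAs, and these fragments can come from longer transcripts.

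Next to each factor, the nearest named protein-coding genes that do not overlap it, Hox genes aside, were read too. The genes on either side of the *Hoxa* cluster, *5730596B20Rik* and *Evx1*, are listed at 0. Beside the *Hoxb* cluster, *Ttll6* is listed at 0 and *Skap1*, an adaptor of T cell signalling, had 1.22 FPKM. *Meis1* lies between *Etaa1* and *Spred2*, at 4.68 and 4.69 FPKM, both above it. *Hlf* lies between *Mmd*, at 4.33 FPKM, and *Stxbp4*, at 1.11 FPKM. *Mecom* and *Prdm16* lie beside genes at or near 0, with *Egfem1*, *Arhgef16* and *Actrt2* listed at 0 and *Actrt3* at 0.0323 FPKM.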
